A study of Mus musculus with 6 samples.

Results

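The interferon regulatory factors (IRFs) are a family of transcription factors that bind DNA through a shared domain at their start, and 8 of them were followed here in bone marrow-derived macrophages (BMMs): *Irf1*, *Irf2*, *Irf3*, *Irf4*, *Irf5*, *Irf7*, *Irf8* and *Irf9*. They were chosen by name, with earlier results of these data known. Each was read from the probe set that the annotation pairs with that gene alone. Where a gene had several, the brightest over the 6 arrays was taken. They are 8 of the 19938 genes that a probe set reads alone, and have 9 probe sets in all, since *Irf1* had a second one. None of them shared a probe set with another gene.

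BMMs were grown from the tibial marrow of 9-week-old mice with macrophage colony-stimulating factor (M-CSF) and then kept for 24 h with RANKL, the cytokine that drives macrophages towards osteoclasts, at 50 ng/ml and M-CSF at 100 ng/ml. The rGDF11 cultures also received 100 ng/ml recombinant GDF11 (rGDF11), a secreted protein of the TGF-β superfamily, and the others received vehicle, with 3 arrays of each. All of the cultures had therefore been given RANKL, and no array without RANKL was compared. Affymetrix Mouse Gene 1.0 ST arrays measured total RNA, and levels are given as log2 values of the robust multichip average (RMA), in which a difference of 1 is a doubling of signal. The samples are labelled biological replicates. The labels name neither the mouse behind each sample nor the strain and sex, so a p-value here reflects variation among these samples, which may be technical. The paper's methods describe the study's mice as female C57BL and give, for BMMs, an age range that ends at 9 weeks.

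Correlations across probe sets, which are not independent, were 0.997 to 0.998 within a group and 0.989 to 0.991 between groups. The array medians lay between 6.106 and 6.177, and no array stood apart. All 8 macrophage markers lay above the median of tested probe sets, a log2 value of 6.15. Below it lay all 8 markers of conventional dendritic cells, all 7 measured markers of T or NK cells, 6 of 7 of B or plasma cells, 4 of 6 of plasmacytoid dendritic cells, 4 of 8 of neutrophils and 3 of 6 of stromal cells or osteoblasts, so some markers of other lineages were above it too.

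As background, the family divides by role. *Irf7* and *Irf9* sit in the feed-forward loop of type I interferon: *Irf9* is the DNA-binding subunit of ISGF3, the complex with STAT proteins that switches on interferon-stimulated genes, and *Irf7* is both a product of that complex and an activator of the interferon genes themselves. *Irf1* is induced by interferon-γ and activates genes of antigen presentation and guanylate-binding proteins, and *Irf2* binds the same elements and opposes it at many of them. *Irf3* and *Irf5* are present before stimulation and are activated by kinases downstream of nucleic acid sensors and Toll-like receptors. *Irf4* and *Irf8* bind DNA together with PU.1, the product of *Spi1*, and in mice *Irf8* is known to restrain osteoclast formation by acting against NFATc1, the main transcription factor of the osteoclast lineage.

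*Irf7*, *Irf1* and *Irf9* were lower with rGDF11 than with vehicle, and the other 5 members did not pass the test. *Irf7* fell most, 6.51-fold, followed by *Irf1* at 1.90-fold and *Irf9* at 1.64-fold. A gene is said to fall or rise where limma's moderated test gave an adjusted p under 0.05, with Benjamini-Hochberg adjustment over 23410 tested probe sets. Of the 8 members, 3 were lower and 0 were higher, while 8.64% of the tested probe sets were lower and 7.31% were higher. At an unadjusted p under 0.05, limma also had 3 members lower and 0 higher. The methods' threshold, a fold change of 1.5 with an unadjusted p under 0.01, gave 3 members lower and 0 higher, and 2.96% of the tested probe sets were lower and 2.06% higher by it. The median log2 fold change of the 8 members was −0.07, beside 0.02 over all tested probe sets.

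*Irf7* (probe set 10569102) read 7.46, 6.92 and 7.12 on the rGDF11 arrays and 10.03, 9.69 and 9.88 on the vehicle arrays. The groups lay far apart, with 2.23 log2 units between the highest rGDF11 array and the lowest vehicle array. Mean levels were 7.17 ± 0.27 with rGDF11 and 9.87 ± 0.17 with vehicle (SD, n = 3 arrays each), a log2 fold change of −2.70 (SE 0.15, 95% confidence interval −3.04 to −2.36; limma, adjusted p = 2.74e-05). Ordered by log2 fold change over 19938 genes, *Irf7* was number 9 among the most negative.

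*Irf1* (probe set 10376060) read 7.26, 7.24 and 7.10 on the rGDF11 arrays and 8.07, 8.18 and 8.12 on the vehicle arrays. Every rGDF11 array was below every vehicle array, with a gap of 0.81. The means were 7.20 ± 0.09 with rGDF11 and 8.12 ± 0.06 with vehicle (SD, n = 3 each), a log2 fold change of −0.92 (SE 0.07, 95% confidence interval −1.09 to −0.76; limma, adjusted p = 0.000109). The second *Irf1* probe set (10385870), which the platform annotation ties to a single cDNA clone, did not move with it. It read 5.34, 5.27 and 5.19 with rGDF11 and 5.15, 5.04 and 5.17 with vehicle, a difference of 0.14 (limma, adjusted p = 0.240). Its rGDF11 arrays were the higher ones, without overlap but by a gap of only 0.02, and it was dim, below the median of tested probe sets.

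*Irf9* (probe set 10415319) read 8.44, 8.26 and 8.28 on the rGDF11 arrays and 9.03, 9.07 and 9.03 on the vehicle arrays. The vehicle arrays were nearly alike, and all of them exceeded all of the rGDF11 arrays, by a gap of 0.59. The means were 8.32 ± 0.10 with rGDF11 and 9.04 ± 0.02 with vehicle (SD, n = 3 each), a log2 fold change of −0.72 (SE 0.07, 95% confidence interval −0.88 to −0.55; limma, adjusted p = 0.000399). For all 3 genes the exact permutation test over samples gave a two-sided p of 0.1, the smallest that 3 arrays against 3 allow. These are bulk cultures, in which fewer cells of a type and less RNA per cell cannot be told apart.

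Within the rGDF11 group, replicate 1 was the highest of the 3 rGDF11 arrays for *Irf7*, *Irf1* and *Irf9* alike. Leaving it out moved the log2 fold changes to −2.85 for *Irf7*, −0.95 for *Irf1* and −0.78 for *Irf9*. Over all 6 arrays left out in turn, the log2 fold change lay between −2.85 and −2.58 for *Irf7*, between −0.95 and −0.87 for *Irf1* and between −0.78 and −0.68 for *Irf9*.

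**Figure D1:**
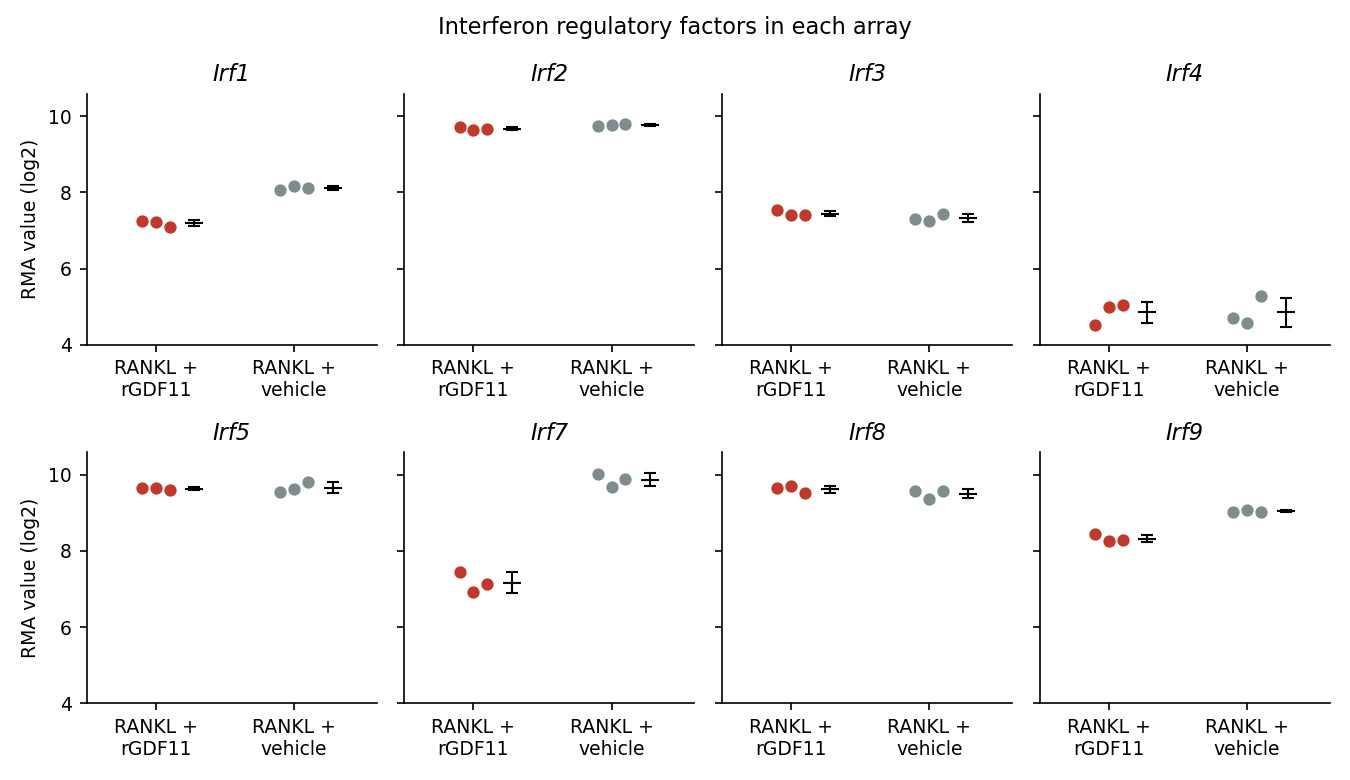
RMA expression values (log2, vertical axis) of the 8 interferon regulatory factors in BMMs after 24 h with RANKL and rGDF11 (red, left) or RANKL and vehicle (grey, right). Each point is an array, in replicate order, beside a bar for the mean and SD of its group (n = 3); the groups lie apart by 2.23 for *Irf7*, 0.81 for *Irf1* and 0.59 for *Irf9*, and they overlap for *Irf3*, *Irf4*, *Irf5* and *Irf8*.

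*Irf2*, the antagonist at *Irf1*'s elements, did not pass the test. *Irf2* (probe set 10571705) read 9.71, 9.63 and 9.68 with rGDF11 and 9.75, 9.77 and 9.81 with vehicle. Every rGDF11 array was again the lower one, but the gap was only 0.04 and the log2 fold change −0.10 (SE 0.06, 95% confidence interval −0.24 to 0.03; limma, adjusted p = 0.319). With *Irf2* counted, 4 of the 8 members had rGDF11 arrays wholly below the vehicle arrays, 0 had them wholly above and 4 overlapped. Over the tested probe sets 16.5% lay wholly below and 16.4% wholly above. Within each array, *Irf1* minus *Irf2* was −2.45, −2.40 and −2.58 with rGDF11 and −1.69, −1.59 and −1.69 with vehicle. The shift of −0.82 exceeded the spread between replicates, with SDs of 0.09 in the rGDF11 group and 0.05 in the vehicle group (two-sided exact permutation p = 0.1, again the smallest possible).

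The promoters of these 4 genes and of *Irf8* are shown, with exact matches to letters that interferon signalling reads marked where a window held them. The sequences are those of RefSeq on build GRCm38.p6, each from 250 bases before the annotated start of the gene to 50 after it, on the strand of the gene and from 5′ to 3′. Where a gene has several starts, the most upstream one is printed. Capitals mark the core of the interferon-stimulated response element (ISRE; GAAA, any 2 bases, GAAA), which IRFs and ISGF3 bind, and the interferon-γ-activated site (GAS; TTC, any 3 bases, GAA), which STAT dimers bind, both searched on both strands. The windows are chr7:141266375-141266674 (minus strand) for *Irf7*, chr11:53769764-53770063 (plus strand) for *Irf1*, chr14:55603735-55604034 (plus strand) for *Irf9*, chr8:46739495-46739794 (plus strand) for *Irf2* and chr8:120736108-120736407 (plus strand) for *Irf8*.
Irf7: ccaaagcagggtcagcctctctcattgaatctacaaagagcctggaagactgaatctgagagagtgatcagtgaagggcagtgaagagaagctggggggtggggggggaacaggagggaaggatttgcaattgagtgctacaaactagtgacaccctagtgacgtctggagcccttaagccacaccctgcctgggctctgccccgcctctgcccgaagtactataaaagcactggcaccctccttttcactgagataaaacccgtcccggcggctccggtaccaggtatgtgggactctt
Irf1: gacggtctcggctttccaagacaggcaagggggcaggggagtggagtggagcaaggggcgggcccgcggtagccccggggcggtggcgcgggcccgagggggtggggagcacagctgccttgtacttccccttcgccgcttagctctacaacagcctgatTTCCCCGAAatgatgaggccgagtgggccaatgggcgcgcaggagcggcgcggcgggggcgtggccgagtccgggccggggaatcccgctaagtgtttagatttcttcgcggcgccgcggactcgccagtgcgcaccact
Irf9: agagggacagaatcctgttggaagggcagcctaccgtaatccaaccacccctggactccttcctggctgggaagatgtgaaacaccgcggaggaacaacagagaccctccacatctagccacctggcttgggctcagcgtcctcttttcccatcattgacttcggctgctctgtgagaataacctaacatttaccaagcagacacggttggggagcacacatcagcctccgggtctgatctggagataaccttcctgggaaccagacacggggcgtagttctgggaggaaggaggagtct
Irf2: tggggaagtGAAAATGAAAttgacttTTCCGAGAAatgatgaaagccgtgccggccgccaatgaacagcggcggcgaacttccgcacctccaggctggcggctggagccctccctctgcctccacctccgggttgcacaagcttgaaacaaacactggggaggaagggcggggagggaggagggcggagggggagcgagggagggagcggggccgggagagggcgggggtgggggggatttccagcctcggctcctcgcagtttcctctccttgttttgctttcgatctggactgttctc
Irf8: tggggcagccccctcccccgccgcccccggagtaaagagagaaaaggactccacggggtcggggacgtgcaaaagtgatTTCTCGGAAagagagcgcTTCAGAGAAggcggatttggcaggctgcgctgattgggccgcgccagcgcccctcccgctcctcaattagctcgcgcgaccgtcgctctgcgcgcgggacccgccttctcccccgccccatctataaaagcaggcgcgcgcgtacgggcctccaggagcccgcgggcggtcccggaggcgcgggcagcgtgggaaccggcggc

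All 8 members had such a window, 11 in all. *Irf1* held a GAS match at −90 to −82 from its start. *Irf2* held a GAS match at −224 to −216 and the only ISRE core among the members, at −241 to −232. That core overlapped a composite of the kind that PU.1 and *Irf8* or *Irf4* bind together (GGAA, any 2 bases, GAAA), at −247 to −238. *Irf8* held a pair of GAS matches, at −171 to −163 and −153 to −145. *Irf7* and *Irf9*, which both fell, held neither set of letters in these windows, and nor did *Irf3*, *Irf4* and *Irf5*.

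Of the 27025 genes with a window, 3.99% held the ISRE core, 9.55% a GAS match and 3.16% the composite, and of the 32851 windows 3.44%, 8.30% and 2.72% did. The Smad box CAGAC, the short element of the Smad proteins through which TGF-β superfamily members signal, was found in windows of 6 of the 8 members and in those of 53.2% of all genes (49.6% of all windows). It was present in *Irf7*, *Irf1* and *Irf9*, which fell, and also in *Irf4*, *Irf5* and *Irf8*, which did not pass the test. A match is a description of letters in a window and says nothing about whether a factor was bound there. The lack of a match does not show that a gene has no such element. Letters outside these windows, and other spellings, were not searched.

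**Figure D2:**
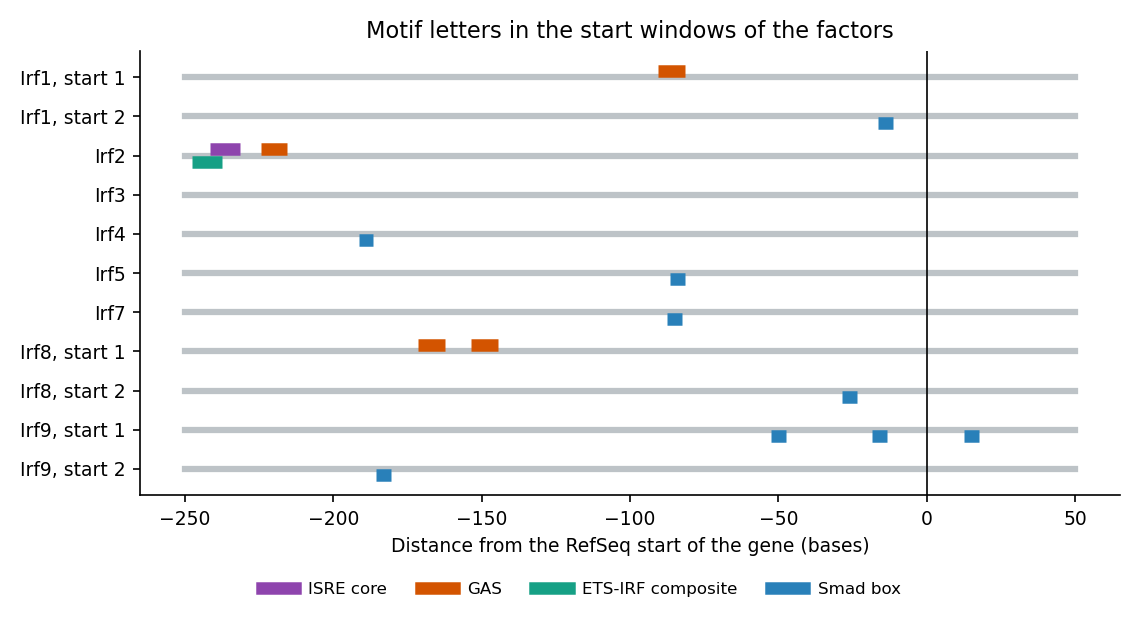
Position of the motif letters in the 11 promoter windows of the 8 factors, as distance in bases from the annotated start (horizontal axis; a gene with several starts has a row for each). Boxes are matches on either strand; the ISRE core is found in *Irf2* alone, GAS matches in *Irf1*, *Irf2* and *Irf8*, and Smad boxes in 6 of the 8 genes.

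*Irf3* and *Irf5*, the factors that wait for a signal, did not pass the test. *Irf3* (probe set 10552812), the effector of viral RNA and DNA sensing, read 7.53, 7.40 and 7.40 with rGDF11 and 7.31, 7.25 and 7.44 with vehicle. The groups overlapped, and the log2 fold change was 0.11 (SE 0.08, 95% confidence interval −0.06 to 0.29; limma, adjusted p = 0.401). *Irf5* (probe set 10536898), which acts downstream of MyD88, read 9.66, 9.66 and 9.59 with rGDF11 and 9.54, 9.63 and 9.82 with vehicle. The vehicle arrays spanned the rGDF11 arrays on both sides, and the log2 fold change was −0.03 (SE 0.08, 95% confidence interval −0.22 to 0.16; limma, adjusted p = 0.861).

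The interval of *Irf3* reaches no further down than −0.06 and that of *Irf5* no further than −0.22, so a fall of the size seen for *Irf9* lies outside both. Set against *Irf3* within each array, *Irf7* moved by −2.82 and *Irf9* by −0.83. Set against *Irf5*, *Irf7* moved by −2.67. Each of these 3 differences separated the groups (exact permutation test over samples, two-sided p = 0.1, the smallest possible).

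*Irf8* and *Irf4*, the partners of PU.1, did not pass the test either. *Irf8* (probe set 10576034), the factor that restrains osteoclast formation in mice, read 9.65, 9.69 and 9.52 with rGDF11 and 9.57, 9.36 and 9.59 with vehicle. The lowest array was a vehicle array and the groups overlapped. The means were 9.62 ± 0.09 with rGDF11 and 9.51 ± 0.13 with vehicle (SD, n = 3 each), a log2 fold change of 0.12 (SE 0.09, 95% confidence interval −0.08 to 0.31; limma, adjusted p = 0.451).

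*Irf4* (probe set 10404389), best known from lymphocytes, dendritic cells and alternatively activated macrophages, read 4.52, 4.98 and 5.04 with rGDF11 and 4.71, 4.56 and 5.28 with vehicle. It was the only member whose mean lay below the median of tested probe sets and the one with the widest spread, with SDs of 0.29 with rGDF11 and 0.38 with vehicle, both above 0.208, the 90th percentile over tested probe sets. Its log2 fold change of −0.01 therefore came with an interval of −0.49 to 0.48 (SE 0.21; limma, adjusted p = 0.990), and a change of up to about that size was not detectable with these arrays. *Irf8* minus *Irf4* shifted by 0.12, within the spread of the replicates (exact permutation test, two-sided p = 0.7).

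**Figure D3:**
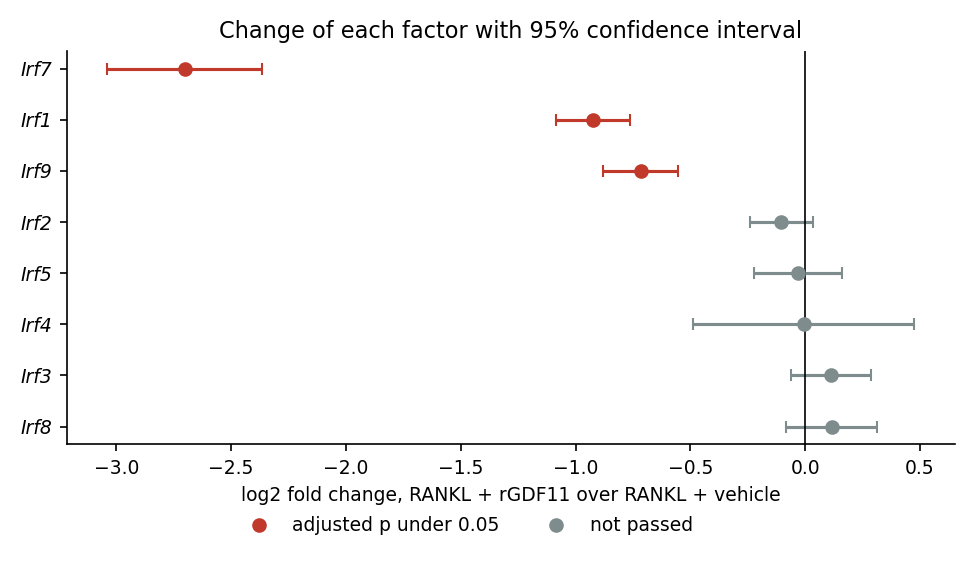
Log2 fold change of each factor, RANKL + rGDF11 over RANKL + vehicle (horizontal axis), with points for the estimate and bars for limma's 95% confidence interval from 3 arrays per group. Red marks the 3 factors with an adjusted p under 0.05, *Irf7* (−2.70), *Irf1* (−0.92) and *Irf9* (−0.72); the intervals of the other 5 include 0, and that of *Irf4* is the widest.

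The genes around these factors were then followed through 7 lists, from the interferon genes to the targets. The lists were chosen with earlier results of these data known, so their counts are descriptions and no test of a list. Over all tested probe sets, 8.64% were lower and 7.31% were higher. Changes given below without a unit are log2 fold changes. The interferon genes themselves, several of which *Irf3* and *Irf7* activate, gave no call: of 15 measured (19 listed), 0 were lower and 0 higher by limma, and at an unadjusted p under 0.05 limma had 0 lower and 1 higher. The median log2 fold change was −0.02. *Ifnb1*, the interferon-β gene, read 4.79, 4.60 and 4.65 with rGDF11 and 4.58, 4.59 and 4.71 with vehicle. These are low readings, below the median of tested probe sets, the groups overlapped and the log2 fold change was 0.05 (95% confidence interval −0.12 to 0.22; limma, adjusted p = 0.734). *Ifna13* had 0.39 (adjusted p = 0.131) and was the gene at an unadjusted p under 0.05. It is named because it passed limma's test without rGDF11 replicate 2, at 0.56 (adjusted p = 0.01), and *Ifnl2* and *Ifna5* had 0.17 and 0.07.

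Of the interferon receptors and their JAK-STAT relays, 7 of 18 measured genes fell (19 listed), 2 rose and 9 did not pass, with a median log2 fold change of −0.18. The largest fall was that of *Usp18*, a protease that shuts down the type I interferon receptor and is itself an interferon-stimulated gene, at −2.44. *Stat2*, the partner of *Irf9* in ISGF3, read 8.10, 7.90 and 8.06 with rGDF11 and 9.89, 9.77 and 9.85 with vehicle. It fell 3.52-fold without overlap (log2 fold change −1.81, SE 0.08; limma, adjusted p = 1.12e-05). *Ifnlr1*, a receptor subunit for the type III interferons, rose by 1.54 log2 units, and *Socs3*, a feedback inhibitor of cytokine receptors, by 0.57. The receptors for type I interferon did not pass, with −0.18 for *Ifnar1* and −0.18 for *Ifnar2*. Their rGDF11 arrays nonetheless lay wholly below their vehicle arrays, by gaps of 0.06 for *Ifnar1* and 0.09 for *Ifnar2*. The brightest genes without a call were *Ifngr2* at 0.01 and *Ifnar2*. The count of 7 dropped to 4 without vehicle replicate 1, without vehicle replicate 3, without rGDF11 replicate 2 or without rGDF11 replicate 3. Apart from *Usp18* and *Stat2*, the falls were small, with log2 fold changes of −0.32 to −0.24.

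Of the sensors, adaptors and kinases that activate IRFs, 12 of 23 measured genes fell (25 listed) and 0 rose, with a median of −0.39. The largest falls were those of the cytosolic RNA sensors *Dhx58* (−2.00), *Ddx58* (−1.88) and *Ifih1* (−1.43), and of *Tlr8* (−1.23), an endosomal Toll-like receptor. These 3 RNA sensors are also ISGF3 targets, and without them 9 of 20 genes were lower and 0 higher. The kinases that phosphorylate *Irf3* and *Irf7*, picked out after their values were seen, fell as well. *Ikbke* read 7.46, 7.41 and 7.44 with rGDF11 and 8.50, 8.42 and 8.51 with vehicle, a fall of 1.04 (limma, adjusted p = 3.44e-05). *Tbk1* fell by 0.39 (limma, adjusted p = 0.0110), and the groups of either kinase did not overlap. The brightest genes without a call were *Unc93b1* (−0.13), which carries endosomal Toll-like receptors, and *Sting1* (−0.10), the adaptor of DNA sensing.

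The proteins that bind DNA with IRFs, and their cofactors, showed small changes in both directions. Of 16 genes, 2 fell, 4 rose and 10 did not pass, with a median of 0.19. Over all tested probe sets 8.64% were lower and 7.31% higher, so the number of falls was near the general share. *Crebbp*, a histone acetyltransferase recruited by IRFs, rose by 0.54, and *Irf2bpl*, of the family that binds *Irf2*, by 0.39. *Batf2*, a partner of *Irf1*, fell by 0.52 and the AP-1 gene *Jund* by 0.47. *Spi1*, the gene of PU.1, read 11.96, 11.94 and 11.99 with rGDF11 and 11.82, 11.89 and 12.01 with vehicle. The groups overlapped (log2 fold change 0.05, 95% confidence interval −0.11 to 0.21; limma, adjusted p = 0.693), and *Ep300*, the relative of *Crebbp*, stood at 0.09. The count of 4 rises was 2 without rGDF11 replicate 1, and 7 when only the brighter probe sets were tested, after another quantile normalization, or with a trended and robust spread.

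All 30 measured targets of ISGF3 fell (32 listed), with log2 fold changes of −3.36 to −0.74 and a median of −1.95, beside 0.02 over all tested probe sets. Because this list was also chosen with earlier results of these data known, the count is a description and no independent support. The largest falls were those of *Ifit3* (−3.36), *Ifit1* (−3.21) and *Ifit2* (−3.07), which bind viral RNA, and of the antiviral enzyme *Rsad2* (−3.18). *Ifit3* read 6.84, 6.16 and 6.40 with rGDF11 and 10.09, 9.71 and 9.70 with vehicle, and the groups were apart for all 30 genes. Replicate 1 was the highest rGDF11 array for 27 of the 30, as it was for *Irf7*, *Irf1* and *Irf9*. Of the 21 targets with a promoter window, 11 (52.4%) held the ISRE core, beside 3.99% of all genes with a window. It was also held by 8 of 15 interferon genes (53.3%), none of which was called. Among the sensors, adaptors and kinases, of which 12 of 23 measured genes fell, 3 of the 16 with a window held it (18.8%). That list shares *Ddx58*, *Dhx58* and *Ifih1* with the ISGF3 targets.

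The targets of *Irf1* and interferon-γ were divided. Of 26 measured genes (29 listed), 16 fell, 0 rose and 10 did not pass, with a median of −0.52. The chemokine *Cxcl10*, which type I interferon also induces, fell by 2.02. The immunity GTPases *Irgm1* and *Gbp7* fell by 1.96 and 1.71, and the cytokine *Il15* fell by 1.26. *Irgm1* read 8.47, 8.34 and 8.25 with rGDF11 and 10.30, 10.31 and 10.32 with vehicle, so that the vehicle arrays were almost level. The brightest genes without a call were *B2m* (−0.10), the light chain of class I major histocompatibility molecules, and *Psme2* (−0.15), a proteasome activator. Of 19 with a promoter window, 9 (47.4%) held the ISRE core.

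Some of the genes listed as regulators tied to *Irf8* in osteoclast formation moved, in both directions, while *Irf8* itself did not pass. Whether their changes have to do with *Irf8* was not tested. Of 14 measured genes (15 listed), 7 rose, 2 fell and 5 did not pass, with a median of 0.50. *Prdm1*, whose product Blimp1 represses *Irf8* in mouse osteoclast precursors, read 8.57, 8.68 and 8.43 with rGDF11 and 7.18, 7.23 and 7.17 with vehicle. It rose 2.59-fold without overlap (log2 fold change 1.37, SE 0.08; limma, adjusted p = 3.33e-05). *Nfatc1*, against which *Irf8* acts, rose 2.51-fold (log2 fold change 1.33), and *Jdp2*, an AP-1 factor of the osteoclast programme, 2.70-fold (1.43). *Maf*, a macrophage factor, fell 2.46-fold (−1.30). *Bcl6*, another target of Blimp1, read 8.95, 8.93 and 9.06 with rGDF11 and 8.71, 8.85 and 8.93 with vehicle. Its rGDF11 arrays were the higher ones by less than the spread of the vehicle arrays, and it did not pass (0.15; limma, adjusted p = 0.278), nor did *Hdac1* (0.03).

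**Figure D4:**
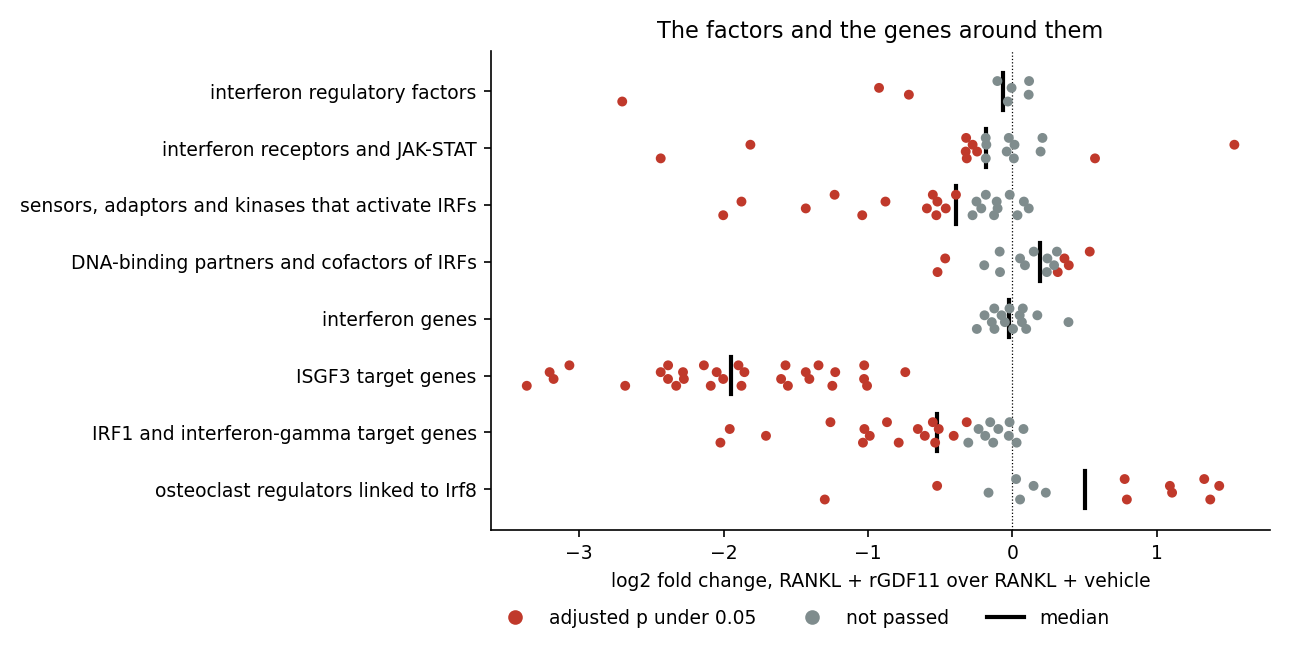
Log2 fold change, RANKL + rGDF11 over RANKL + vehicle (horizontal axis), of the 8 factors and of the measured genes of the 7 lists around them (rows; each point is a gene, black bars are medians). Red points passed limma's test at an adjusted p under 0.05; all 30 ISGF3 targets lie between −3.36 and −0.74, while the 15 interferon genes hold no red point. The lists were chosen with earlier results of these data known.

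By the root mean square difference between profiles over the 6 arrays, each profile centred on its own mean, the genes nearest to the 3 fallen members were found among 9917 genes above the median level. The nearest to *Irf7* were *Folr2* (0.089 log2 units), a macrophage folate receptor, *Cmpk2* (0.117), an interferon-stimulated nucleotide kinase of the ISGF3 list, and *Pltp* (0.131), a lipid transfer protein. The nearest to *Irf9* were *Treml4* (0.0272), *Samhd1* (0.0320), which degrades nucleotides and restricts viruses, and *Trim14* (0.0433), an antiviral adaptor. The nearest to *Irf1* were *Ptgr1* (0.0221), a prostaglandin reductase, *Zdhhc14* (0.0293) and *Cyria* (0.0296). The distance reflects the size of the change and the order of the arrays, and with 6 arrays in 2 groups many genes of like fold change are close.

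Markers of macrophages and osteoclast precursors moved in the same comparison. Of 8 macrophage markers, 5 were lower with rGDF11 and 0 higher, and their summed linear signal was 23500 to 24800 with rGDF11 and 29000 to 29500 with vehicle. The falls were largest for *Fcgr1* (−1.41) and *Cd14* (−1.06), while *Csf1r* (−0.08), *Lyz2* (−0.02) and *Mertk* (0.06) did not pass. Of 6 osteoclast precursor markers, 5 were higher, with sums of 4840 to 5220 with rGDF11 and 2360 to 2640 with vehicle.

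Dendritic cells and B cells are other sources of *Irf4*, *Irf7* and *Irf8*. The 6 measured markers of plasmacytoid dendritic cells summed to 954 to 975 with rGDF11 and 792 to 891 with vehicle. *Tcf4*, the brightest of them, carried most of that sum, with means of 9.52 with rGDF11 and 9.20 with vehicle, and was the only one called. The defining marker *Siglech* was dim, with means of 5.36 with rGDF11 and 5.17 with vehicle, and *Cox6a2* (−0.42), *Ccr9* (−0.03), *Ly6d* (−0.03) and *Pacsin1* (−0.03) did not pass. The 8 markers of conventional dendritic cells, all below the median, summed to 352 to 399 with rGDF11 and 306 to 333 with vehicle. Of these, *Flt3* (0.25) alone was called higher, and 0 were lower. The 7 measured markers of T or NK cells, also all below the median, summed to 205 to 224 with rGDF11 and 193 to 227 with vehicle. *Cd4* (−0.25) alone was called lower among them, and 0 were higher. B cell or plasma cell markers, 6 of 7 below the median, summed to 229 to 278 with rGDF11 and 330 to 363 with vehicle. *Cd79b* alone fell, by 1.19, and the log2 fold changes of the other 6, none of which passed, lay between −0.01 for *Pax5* and 0.36 for *Ebf1*. Neutrophil markers summed to 659 to 722 with rGDF11 and 528 to 554 with vehicle. Of these 8, *Cxcr2* (1.37) and *S100a8* (0.71) were higher. The others did not pass and were split, from −0.22 for *Ly6g* to 0.26 for *Elane*. Stromal or osteoblast markers summed to 594 to 676 with rGDF11 and 413 to 450 with vehicle. Of 6 measured, 4 were higher, *Col1a2* (0.65), *Col1a1* (0.63), *Pdgfrb* (0.48) and *Alpl* (0.44), and 0 were lower. RMA values have no true zero, so no marker can be called absent. The part of these markers, those of macrophages and osteoclast precursors included, in the results on *Irf7*, *Irf1* and *Irf9* was not tested.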

How the data were processed

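RNA from 3 BMM samples with rGDF11 and 3 with vehicle was read on 6 Affymetrix Mouse Gene 1.0 ST arrays. The authors deposited log2 values from RMA, which corrects background, normalizes the arrays together and summarises probe sets. The submitters' processing notes name Transcriptome Analysis Console 3.0, while the version of Expression Console is not stated in the methods or labels. Of 35556 probe sets, the 23410 with a gene symbol were compared in R 4.3.3 by limma 3.58.1 (two-sided, lmFit then eBayes with no trend, Benjamini-Hochberg). The code of the fit was checked on simulated data with planted changes and independent normal noise. That check held no batch effect and no dependence between probe sets, so it does not bear on the calls here. Arrays have no depth, and 3 per group limit the precision. RMA compresses large changes, and the platform annotation can be old.

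The members and lists were chosen with earlier results of these data known. The text names the 8 members, up to 4 called genes with the largest change and up to 2 bright genes without a call per list, the 3 nearest profiles of each called member and a few fixed genes, *Stat2*, *Spi1*, *Ifnb1*, *Nfatc1*, *Prdm1* and *Bcl6*. Genes named outside this rule are *Ifnar1*, *Ifnz*, genes of the marker lists, *Ikbke*, *Tbk1* and *Ifna13*. *Ikbke* and *Tbk1* were picked after their values were seen, and *Ifna13* for its call when an array was left out. Listed genes without a probe set of their own are not analysed here. Alternatives covered the rows tested, normalization, spread, the methods' t-test, a replicate block, each array left out, the probe set taken and the thresholds. RefSeq sequences are of build GRCm38.p6.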

Additional observations from a re-analysis of the deposited data

How the results depend on the processing

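Under 17 alternatives each, *Irf1*, *Irf7* and *Irf9* remained lower with an adjusted p of at most 0.00624, 0.00681 and 0.00935, the highest by the methods' t-test, and *Irf2*, *Irf3*, *Irf5* and *Irf8* never passed. *Irf4* never passed under 16, since a filter on dim probe sets removed it. The log2 fold change of *Irf1* fell in size to −0.39 when its 2 probe sets were averaged. Only 2 members, *Irf7* and *Irf9*, then passed the methods' threshold. At a fold change of 2, 1 member, *Irf7*, was lower in place of 3. Over all tested probe sets, an adjusted p under 0.01 left 1183 lower and 845 higher, in place of 2023 and 1712, and leaving out an array gave 1129 to 1357 higher, the fewest without rGDF11 replicate 1. Deviations of same-numbered samples correlated at 0.06, 0.34 and −0.00083, which shows no consistent sign of pairing, and the labels do not say whether a number marks a shared batch. With the replicate number as a block, 1943 were lower and 1676 higher, the members kept 3 lower and 0 higher, and *Ifna13* rose (adjusted p = 0.0465). Of 238 list counts under the alternatives, 223 stayed within 1.5 times. Dim genes such as *Irf4* and most of the interferon genes limit what 3 arrays a group can show. Of the interferon genes, *Ifnl2*, *Ifna5* and *Ifnz* lay above the median of tested probe sets.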
